A study of Mus musculus with 4 samples.

Results

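The chitinase-like and resistin-like genes encode secreted proteins that are best known from type 2 inflammation, the immune response behind allergic asthma. The 9 genes described here are 4 chitinase-like genes (Chil1, Chil3, Chil4 and Chil5), 2 chitinases (Chia1 and Chit1) and 3 resistin-like genes (Retnla, Retnlb and Retnlg). Their probes were found by gene name, older names included (Chi3l1, Chi3l3, Chi3l4, Bclp2 and Chia), on a mouse expression array. This gave 10 of 39429 probes and 9 of 28663 genes, with 2 probes for Chil5 and 1 for each of the others. Of the 9 genes, 8 were well above background on all 4 arrays, and Retnlb was so on the challenged arrays only.

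The study asked what deletion of Pla2g3, the gene of the secreted group III phospholipase A2, changes in bronchial epithelial cells of an allergic asthma model. There were 4 groups, namely antigen challenged Pla2g3-/-, antigen challenged Pla2g3+/+ (wild type), control Pla2g3-/- and control Pla2g3+/+ mice. Per the labels, sensitisation used 10 µg ovalbumin (OVA) with 1.3 mg alum in 0.2 ml on days 0 and 14. Aerosols of 1% OVA lasted 30 min on days 26, 27 and 28, and cells were prepared from lungs collected 3 h later. The labels do not state the treatment of control mice, so each challenge effect can include sensitisation, nor do they give the kind of deletion, the strain or the age. Each group is 1 single-colour array of RNA pooled from 4 samples, and all 4 arrays share 1 slide, so no difference between 2 arrays has a replicate check or a p-value, and array position and group cannot be told apart.

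On each array 78.7% to 81.5% of probes lay well above background, and no spot was saturated. Pla2g3 itself went against the labels. Its brighter probe read 4154 and 254 intensity units on the challenged arrays labelled Pla2g3-/- and wild type, and 2023 and 239 units on the control arrays labelled Pla2g3-/- and wild type. Its other probe read 336 and 13.1 units on the challenged arrays labelled Pla2g3-/- and wild type, and 177 and 44.1 units on the control arrays labelled Pla2g3-/- and wild type, so both probes were higher on the arrays labelled Pla2g3-/-. On the log2 scale below, the brighter probe was higher there by 3.90 on challenged and 3.19 on control arrays. The other probe was higher by 4.56 and 2.12. The labels do not name the deleted stretch, so whether either probe lies in it is unknown, and the cause of these differences was not tested. The arrays are therefore called "labelled Pla2g3-/-" throughout. Every genotype direction rests on the labels as given, those reading wild type included. An exchange of the genotype labels was not tested. Markers of the labelled cell type were all above background on each array. This does not tell cell types apart, since all 12 thymocyte and all 10 B cell genes were so as well. Goblet and club cell genes had medians of 6.79, 6.51, 6.23 and 5.48 and ciliated and basal cell genes medians of 3.67, 3.69, 3.53 and 3.59 on the log2 scale below, for challenged labelled Pla2g3-/-, challenged wild type, control labelled Pla2g3-/- and control wild type. Gene by gene, the goblet and club list differed little between the control arrays, labelled Pla2g3-/- minus wild type (median 0.05). There 1 of its 14 genes was at least 2-fold higher and none lower, against 3.2% and 1.8% of all genes. All 11 alveolar genes were above background on each array as well, with medians of 4.10, 4.23, 4.15 and 4.20.

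Mammalian chitinases cut chitin, the polymer of fungal walls, insect cuticles and mite bodies. The chitinase-like proteins share their fold but have lost the residue needed for cutting, and bind sugars or receptors instead. In mouse lung, interleukin 4 and interleukin 13 act through the factor STAT6 on epithelial cells and macrophages, and Chil3, Chil4, Chia1, Retnla and Retnlb are textbook outputs of that pathway. Resistin-like proteins are short, cysteine-rich and secreted, and are made by epithelium, macrophages or neutrophils depending on the member.

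The genes lie in 3 clusters. On mm9, the build of the probe positions in the files, the probes of Chil5 (the brighter at chr3:105819901-105819960), Chia1 (chr3:105934967-105935026), Chil3 (chr3:105950485-105950544) and Chil4 (chr3:106006584-106006643) lie on chromosome 3. Those of Chit1 (chr1:136047897-136047956) and Chil1 (chr1:136086448-136086507) lie on chromosome 1, and those of Retnlb (chr16:48818874-48818933), Retnla (chr16:48844447-48844506) and Retnlg (chr16:48874468-48874527) on chromosome 16. Exon and UTR were not assigned, since the annotation used here is of another build.

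Some sequences bear on what follows. The first are the array probe of Chil4, the gene with the largest challenge effect in wild type among members measured on both wild-type arrays, and that of the dimmer Chil5 probe, which reads another stretch of the transcript (from base 798, at chr3:105822871-105822930, minus strand, mm9) than the brighter one (from base 4906). Each is 60 bases long and is printed 5′ to 3′ in lower case as the files give it.
Chil4 probe: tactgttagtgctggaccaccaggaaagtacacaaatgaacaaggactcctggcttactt
Chil5 dimmer probe: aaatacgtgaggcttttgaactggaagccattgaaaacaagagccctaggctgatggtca

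The second set is the promoters of Chil3, Chil4, Retnla and Retnlg, shown because they are the members with a match to a STAT motif. The windows are those of RefSeq on GRCm38.p6, from 250 bases before to 50 after the annotated start, and 8 of the 9 genes matched an entry. Motifs were searched on both strands: TTCNNNNGAA, the spacing STAT6 prefers, TTCNNNGAA, the spacing of other STAT factors, TTGCNNAA, a core of C/EBP sites, and TATAAA. Both STAT motifs are their own reverse complement, and no match of one overlapped a match of another motif. Capitals mark the STAT motifs.
Chil3 (chr3:106167515-106167814, minus strand): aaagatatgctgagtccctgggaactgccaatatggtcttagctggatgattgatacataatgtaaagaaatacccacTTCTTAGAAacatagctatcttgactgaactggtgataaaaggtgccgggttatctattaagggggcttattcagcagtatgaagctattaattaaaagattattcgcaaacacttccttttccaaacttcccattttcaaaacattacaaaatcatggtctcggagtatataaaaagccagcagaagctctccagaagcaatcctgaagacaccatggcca
Chil4 (chr3:106219430-106219729, minus strand): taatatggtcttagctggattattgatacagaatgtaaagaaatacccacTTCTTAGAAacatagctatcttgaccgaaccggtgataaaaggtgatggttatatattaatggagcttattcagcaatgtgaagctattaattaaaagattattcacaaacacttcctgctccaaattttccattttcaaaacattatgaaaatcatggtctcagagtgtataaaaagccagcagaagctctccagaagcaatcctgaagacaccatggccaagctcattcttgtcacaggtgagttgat
Retnla (chr16:48842359-48842658, plus strand): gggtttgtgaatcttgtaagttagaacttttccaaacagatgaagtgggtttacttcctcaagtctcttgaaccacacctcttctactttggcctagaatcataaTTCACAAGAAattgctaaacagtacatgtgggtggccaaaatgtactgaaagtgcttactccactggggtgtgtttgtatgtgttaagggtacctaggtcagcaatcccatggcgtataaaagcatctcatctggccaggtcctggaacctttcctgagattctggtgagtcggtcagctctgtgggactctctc
Retnlg (chr16:48872358-48872657, plus strand): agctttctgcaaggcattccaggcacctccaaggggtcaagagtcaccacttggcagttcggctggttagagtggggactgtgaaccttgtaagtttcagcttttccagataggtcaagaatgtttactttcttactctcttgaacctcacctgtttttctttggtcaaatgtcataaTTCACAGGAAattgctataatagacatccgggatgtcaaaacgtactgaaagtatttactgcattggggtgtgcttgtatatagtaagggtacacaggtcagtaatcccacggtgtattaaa

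The motif with spacing of 4 occurred in 2 of the 8 windows, at -145 in Retnla (TTCACAAGAA) and at -72 in Retnlg (TTCACAGGAA), counting from the start, and in 6.99% of 27025 promoters. The motif with spacing of 3 occurred in 2 others, as the same 9 bases in Chil3 at -172 and in Chil4 at -200 (TTCTTAGAA), and in 8.47% of promoters. C/EBP cores were found in Chil4, Retnla and Retnlg (10.8% of promoters), and the one in Retnla begins at -134, next to the STAT motif. TATAAA was found in Chil3, Chil4, Chia1 and Retnla (14.2%). Chil1, Chil5, Chia1 and Chit1 held neither STAT motif in these windows. Over 271 aligned bases the Chil3 and Chil4 windows were 92.6% identical, and those of Retnla and Retnlg were 79.1% identical over 225. A match describes letters and is not evidence of binding.

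**Figure D1:**
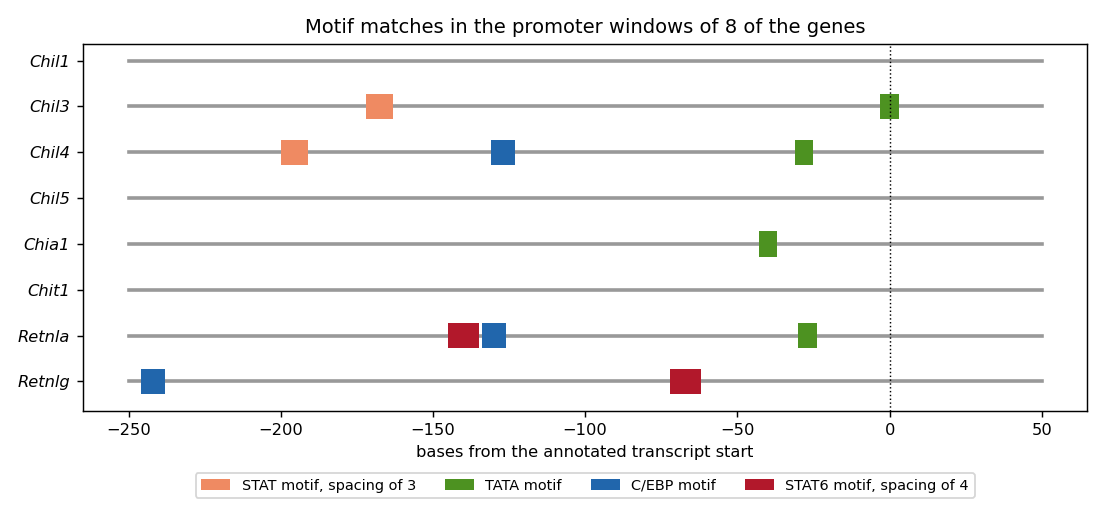
Motif matches in the promoter windows of 8 of the genes, by distance in bases from the annotated transcript start (x axis), with 1 line per gene and 1 coloured block per match. Retnla and Retnlg carry the motif with spacing of 4, Chil3 and Chil4 the motif with spacing of 3, and Chil1, Chil5 and Chit1 no match of any of the 4 motifs.

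Levels are given as processed intensity and differences as log2 differences of array values scaled to each array's own 75th percentile, where 1 is 2-fold. The error beside a difference is the scanner's own error of the signal; it covers the spot and not animals, pools, labelling or hybridisation. A gene counts as different at 2-fold or more. Levels of different genes come from different probes and are not compared. In these pools, fewer cells of a type and less RNA per cell cannot be told apart.

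After challenge most of the set was higher. On the arrays labelled Pla2g3-/-, 5 of 9 genes were at least 2-fold higher on the challenged array than on the control array and none was lower, against 3.9% higher and 3.43% lower of 23746 genes measured. In wild type 7 of 9 were higher and none was lower, against 1.81% and 1.69% of 24078 genes. The genes higher in both genotypes were Chil1, Chil5, Retnla, Retnlb and Retnlg, and 0.777% of 23306 genes were so. Median challenge effects were 2.31 on arrays labelled Pla2g3-/- and 2.48 in wild type for the 9 genes, and -0.06 and -0.03 for all genes. Of the 8 genes of the set above background on all 4 arrays, 5 (Chil1, Chil5, Chit1, Retnla and Retnlg) read higher on both challenged arrays than on both control arrays, as did 18.4% of 22228 such genes in all.

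**Figure D2:**
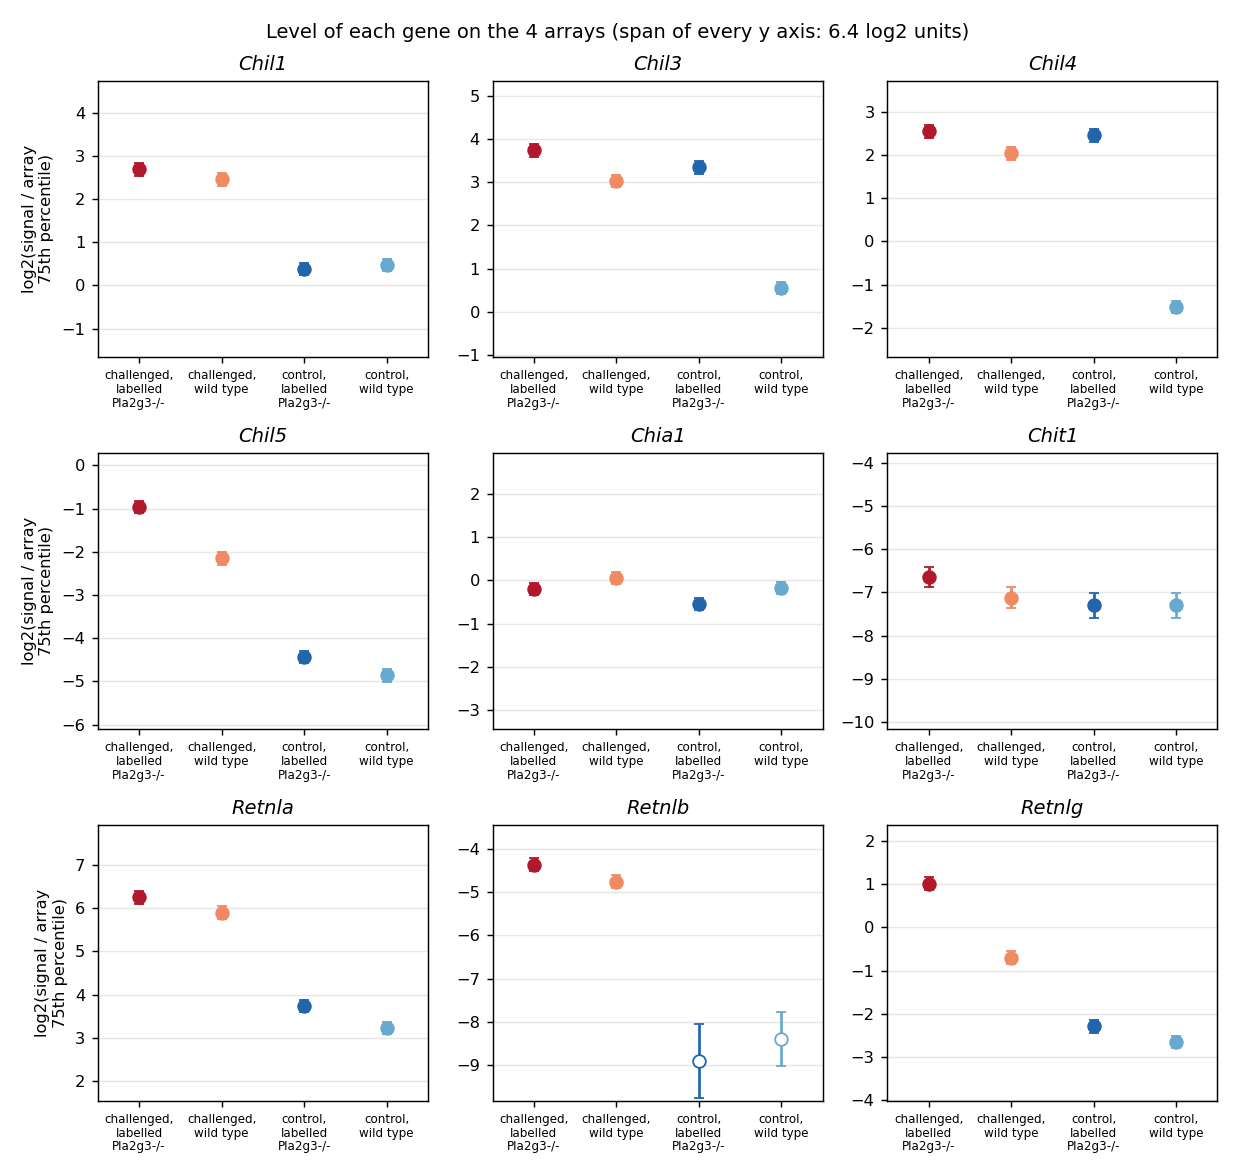
Log2 signal over the array's 75th percentile (y axis) of each of the 9 genes on the 4 arrays (x axis), 1 array per point, with the scanner's error as bars and open points where the probe was not well above background. Each panel spans the same number of log2 units, and in Chil3 and Chil4 the wild-type control array stands alone below the other 3 arrays.

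Chil1 encodes the mouse counterpart of human YKL-40, made by airway epithelium and macrophages. It read 12744 units on the challenged array labelled Pla2g3-/- and 9897 on the challenged wild-type array, against 2376 units on the control array labelled Pla2g3-/- and 2743 on the wild-type control array. The challenged arrays were both far above the controls, and within each pair the genotypes lay close together. The challenge effect was 2.31 ± 0.20 (4.97-fold) on arrays labelled Pla2g3-/- and 1.99 ± 0.20 (3.96-fold) in wild type, a difference of 0.33 ± 0.29. The genotype effect was 0.23 ± 0.20 on challenged and -0.09 ± 0.20 on control arrays, near the size of the scanner error.

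Chil3 encodes Ym1, a lectin stored and secreted by alternatively activated macrophages. It read 26412 units on the challenged array labelled Pla2g3-/- and 14752 on the challenged wild-type array, against 18654 units on the control array labelled Pla2g3-/- and 2903 on the wild-type control array. A single array was low, the wild-type control. The challenge effect was accordingly 2.48 ± 0.20 (5.58-fold) in wild type and 0.39 ± 0.20 (1.31-fold) on arrays labelled Pla2g3-/-.

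Chil4 encodes Ym2, a close relative of Ym1 that in mouse lung is made mainly by airway epithelium. It read 11552 units on the challenged array labelled Pla2g3-/- and 7413 on the challenged wild-type array, against 10063 units on the control array labelled Pla2g3-/- and 692 on the wild-type control array. Again the wild-type control array stood alone. The challenge effect was 3.56 ± 0.20 (11.8-fold) in wild type, with 5 of 24078 genes larger, and 0.09 ± 0.20 (1.06-fold) on arrays labelled Pla2g3-/-. Chil3 and Chil4 are near-identical copies, and how far RNA of one binds the probe of the other was not tested.

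Chil5 is a further chitinase-like gene of the chromosome 3 cluster. Its brighter probe read 1015 units on the challenged array labelled Pla2g3-/- and 407 on the challenged wild-type array, against 85.0 units on the control array labelled Pla2g3-/- and 68.8 on the wild-type control array. All 4 arrays differed in the same order as for Retnla and Retnlg, with the 2 controls close together. The challenge effect was 3.47 ± 0.21 (11.1-fold) on arrays labelled Pla2g3-/- and 2.70 ± 0.21 (6.50-fold) in wild type. The dimmer probe, whose sequence is printed above, read 26.9 units on the challenged array labelled Pla2g3-/- and 21.5 on the challenged wild-type array, against 6.4 and 9.0 units on the control arrays labelled Pla2g3-/- and wild type, neither well above background. A value not well above background is only a bound, taken as the higher of the array's lowest detected signal and the probe's own, so this probe was at least 1.51 higher on arrays labelled Pla2g3-/- and at least 1.29 higher in wild type.

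Neither chitinase with an intact catalytic site was 2-fold different in any comparison. Chia1, acidic mammalian chitinase, is secreted by airway and stomach cells. It read 1729 units on the challenged array labelled Pla2g3-/- and 1881 on the challenged wild-type array, against 1250 units on the control array labelled Pla2g3-/- and 1762 on the wild-type control array. The groups overlapped, since the wild-type control array read above the challenged array labelled Pla2g3-/-. Its challenge effects were 0.36 ± 0.20 on arrays labelled Pla2g3-/- and 0.23 ± 0.20 in wild type. Chit1, chitotriosidase, a macrophage enzyme, was dim, at 19.9 and 13.0 units on the challenged arrays labelled Pla2g3-/- and wild type, against 11.7 and 12.6 units on the control arrays labelled Pla2g3-/- and wild type. Its effects of 0.66 ± 0.37 and 0.18 ± 0.38 stayed under 2-fold.

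Retnla encodes RELM-alpha (FIZZ1), first found in inflamed mouse lung, and made by airway epithelium and alternatively activated macrophages. It read 150559 units on the challenged array labelled Pla2g3-/- and 107843 on the challenged wild-type array, against 24368 units on the control array labelled Pla2g3-/- and 18546 on the wild-type control array. Both challenged arrays stood far above both controls. The challenge effect was nearly the same size in each genotype, 2.52 ± 0.20 (5.73-fold) on arrays labelled Pla2g3-/- and 2.68 ± 0.20 (6.39-fold) in wild type, a difference of -0.16 ± 0.29.

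Retnlb encodes RELM-beta, a goblet cell product of gut and inflamed airway. It read 95.8 units on the challenged array labelled Pla2g3-/- and 66.6 on the challenged wild-type array, against 3.8 and 5.9 units on the control arrays labelled Pla2g3-/- and wild type, neither well above background. The gene was therefore quantified after challenge only. It was higher by at least 3.34 (at least 10.1-fold) on arrays labelled Pla2g3-/- and by at least 2.92 (at least 7.58-fold) in wild type. With normexp background correction, which lifts dim signals, those values were 1.11 and 0.97.

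Retnlg encodes RELM-gamma, found in rodents and made in bone marrow and by neutrophils. It read 3995 units on the challenged array labelled Pla2g3-/- and 1112 on the challenged wild-type array, against 374 units on the control array labelled Pla2g3-/- and 315 on the wild-type control array. The challenged arrays differed from each other as well as from the controls. The challenge effect was 3.31 ± 0.20 (9.89-fold) on arrays labelled Pla2g3-/- and 1.96 ± 0.20 (3.88-fold) in wild type. Part of the neutrophil marker list was higher too. Of 14 genes measured, challenge left 7 at least 2-fold higher and 1 lower on arrays labelled Pla2g3-/- (3.9% and 3.43% of all genes). In wild type 6 were higher and none lower (1.81% and 1.69% of all genes). Among those higher were Mmp8, a neutrophil collagenase (3.78 and 1.58), and Cxcr2, a chemokine receptor (3.32 and 1.99). Among those that read lower in both genotypes were Mpo (-1.12 and -0.63) and Itgam (-0.78 and -0.27). The summed scaled signal of the 14 was 261.6 and 254.5 on the challenged arrays labelled Pla2g3-/- and wild type. It was 232.6 and 245.3 on the control arrays labelled Pla2g3-/- and wild type. Ltf, the brightest of the 14, weighs most in that sum and changed little (-0.09 and 0.05). All 14 were above background on each array. The part of the neutrophil genes in the Retnlg result was not tested.

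**Figure D3:**
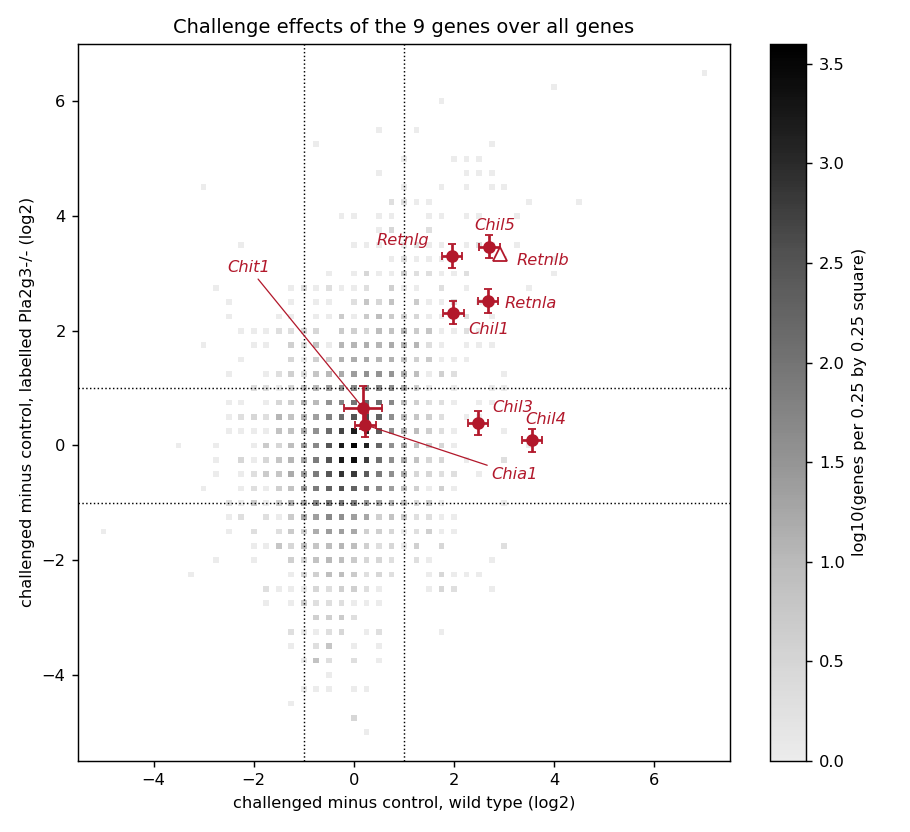
Challenge effect on arrays labelled Pla2g3-/- (y axis) against that in wild type (x axis), both as log2 differences, with all 23306 genes measured in both as grey squares (darker for more genes) and the 9 genes in red with the scanner's error as bars. Dotted lines mark 2-fold, and the triangle is Retnlb, a lower bound on both axes; Chil3 and Chil4 lie right of the cloud at 0.39 and 0.09 on the y axis, apart from the 5 genes higher in both.

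The genotype comparison of control arrays asks what differed without challenge. Of 8 genes measured, Chil3 and Chil4 were at least 2-fold higher on the control array labelled Pla2g3-/- than on the wild-type control array and none was lower, against 3.2% higher and 1.8% lower of 23947 genes. Chil4 differed by 3.98 ± 0.20 (15.7-fold), with 34 genes larger, and Chil3 by 2.80 ± 0.20 (6.96-fold), with 94 larger. The other 6 measured genes lay between -0.38 (Chia1) and 0.51 (Retnla).

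The control arrays also differed in marker genes of other cells. Of 12 thymocyte genes, 11 were at least 2-fold higher on the control array labelled Pla2g3-/- (median 3.98), against 3.2% of all genes. Their summed scaled signal was 6.65 and 4.59 on the challenged arrays labelled Pla2g3-/- and wild type, against 46.6 and 5.72 on the control arrays labelled Pla2g3-/- and wild type, with all 12 above background on each. Of 14 measured macrophage genes none was at least 2-fold higher on that control array and 1 was lower, the scavenger receptor gene Marco (-1.37). The macrophage sums were 20.2 and 10.9 on the challenged arrays labelled Pla2g3-/- and wild type, and 13.9 and 14.1 on the control arrays labelled Pla2g3-/- and wild type, with Cd163 not above background on any. The part of the thymocyte signal in the Chil3 and Chil4 result was not tested. Of the epithelial genes, the goblet cell gene Clca1 was higher on that control array by 1.43, and the anion exchanger gene Slc26a4 differed the other way by -3.54.

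**Figure D4:**
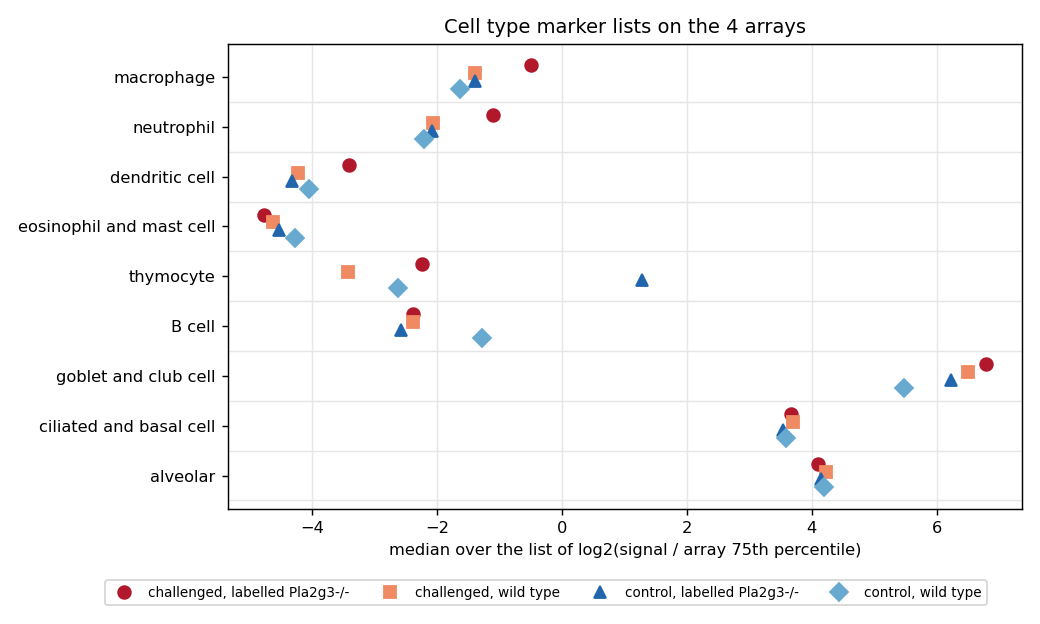
Median log2 signal over the array's 75th percentile (x axis) of 9 marker gene lists (y axis) on the 4 arrays, 1 symbol per array. The thymocyte median is 1.28 on the control array labelled Pla2g3-/- and between -3.42 and -2.24 on the others, while the ciliated, basal and alveolar medians nearly coincide.

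Which control array was used therefore decided the challenge effects of Chil3 and Chil4. Set against the wild-type control array, the challenged array labelled Pla2g3-/- was higher by 3.19 for Chil3 and 4.07 for Chil4. Set against the control array labelled Pla2g3-/-, the challenged wild-type array gave -0.32 for Chil3 and -0.42 for Chil4. With these exchanged controls the count of genes at least 2-fold higher was 7 of 9 on arrays labelled Pla2g3-/-, against 4.1% of 23884 genes measured, and 5 of 9 in wild type, against 2.28% of 24041 genes. Chil1, Chil5, Retnla, Retnlb and Retnlg stayed at least 2-fold higher with either control array.

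Between the challenged arrays 2 of 9 genes were at least 2-fold higher on the array labelled Pla2g3-/- than on the wild-type array and none was lower, against 3.87% and 2.49% of 23857 genes. Retnlg differed by 1.71 ± 0.20 (3.28-fold) and Chil5 by 1.19 ± 0.20 (2.28-fold). The dimmer Chil5 probe gave only 0.19 ± 0.28, so the 2 probes of this gene disagreed in size, and with their mean Chil5 differed by 0.69. Chil3 differed by 0.71, Chil4 by 0.51, Chit1 by 0.49, Retnlb by 0.39 and Retnla by 0.35, and Chia1 by -0.25. With the label Pla2g3-/-, 7 of 14 neutrophil genes on the challenged arrays read at least 2-fold higher and 1 lower, and 3 of 14 macrophage genes were higher, Marco by 2.58. Their part in the values of Retnlg and Chil5 was not tested.

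The difference between the challenge effects, labelled Pla2g3-/- minus wild type, was -3.47 ± 0.29 for Chil4 and -2.09 ± 0.29 for Chil3. These lie at the 0.099th and 0.58th percentile of 22228 genes. For Retnlg it was 1.35 ± 0.29, at the 98.4th percentile. Differences of at least 1 were seen in 2.82% of genes upward and 2.71% downward. Chil5 (0.77), Chit1 (0.48), Chil1 (0.33), Chia1 (0.13) and Retnla (-0.16) stayed under that size. Retnlb has no such value, since both its challenge effects are bounds. With 4 arrays this quantity has no test.

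The only test across arrays was a limma model with additive terms for genotype and challenge, which leaves 1 residual degree of freedom and in which any true difference between the challenge effects counts as error. After Benjamini-Hochberg adjustment it called 0 of the 9 genes for the average challenge effect and 1 of 24555 genes in all (0.00407%), the chemokine gene Cxcl5. At an unadjusted p under 0.05 there were 6 of the 9 and 3472 of all genes (14.1%). Retnla came nearest, with an average effect of 2.60 ± 0.09 (standard error) and an adjusted p of 0.0588 (limma), higher in both genotypes. Chil1 averaged 2.15 ± 0.12 with an adjusted p of 0.185, Chil5 3.08 ± 0.23 with 0.212 and Retnlg 2.63 ± 0.35 with 0.225 (limma). Chil3 averaged 1.44 ± 0.53 and Chil4 1.82 ± 0.87, with adjusted p of 0.360 and 0.439 (limma). Retnlb (4.08 ± 0.38) and Chia1 (0.29 ± 0.10) were also among the 6. The Retnlb value rests on control signals that were not well above background. Retnla passed in 4 of the alternative settings, and its adjusted p ranged between 0.0177 and 0.501 over all of them. For genotype limma called 0 genes. An unadjusted p under 0.05 was reached by 2806 genes (11.4%), of them 5 of the 9, and the lowest adjusted p of the set was 0.267, for Retnla at 0.43 ± 0.09.

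Genes of the wider pathway were counted next. Of 20 genes of type 2 signalling, challenge put 9 at least 2-fold higher and 1 lower on arrays labelled Pla2g3-/- (median 0.42). The shares of all genes were 3.9% and 3.43%. In wild type 5 of 19 were higher and none lower (median 0.10), against 1.81% and 1.69% of all genes. The cytokine genes Il5 (at least 5.18 and at least 2.76) and Il13 (at least 4.67 and at least 2.19) were not well above background on the controls, and Cish (3.36 and 1.02) and Socs3 (3.10 and 1.06), feedback inhibitors of cytokine signalling, were higher in both. Between the control arrays 5 of 17 of these genes were higher on that labelled Pla2g3-/- (3.2% of all genes). The T cell factor gene Gata3 was at 3.08 there. Between the challenged arrays 10 of 20 were higher with the label Pla2g3-/- (median 0.99), against 3.87% of all genes.

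Of the genes that interleukin 4 and STAT6 switch on in macrophages, 15 were measured on arrays labelled Pla2g3-/-. After challenge 8 of them were at least 2-fold higher there (median 1.01), against 3.9% of all genes. In wild type 1 of 14 was higher and 1 lower (median -0.19), against 1.81% and 1.69% of all genes. The chemokine gene Ccl17 was at 4.44 and 2.69, the lectin receptor gene Clec7a at 2.08 and 0.30, the factor gene Egr2 at 1.62 and -0.13, and the lipoxygenase gene Alox15 at 0.86 and 0.43. Of the epithelial genes induced by interleukin 13, 10 of 20 were higher on arrays labelled Pla2g3-/- (median 0.99), against 3.9% of all genes. In wild type 3 of 19 were higher and 1 lower (median 0.42), against 1.81% and 1.69% of all genes. Slc26a4 was at 4.19 and 4.62, the trefoil factor gene Tff1 at 1.78 and 2.86, Clca1 at 0.63 and 1.89 and the mucin gene Muc5ac at 1.15 and 0.86. Clca1 read lowest on the wild-type control array, with 140892 units on the control array labelled Pla2g3-/- against 56639 units there. So did Chil3, Chil4, Chil5, Retnla and Retnlg of the set. The other epithelial genes named here, Slc26a4, Tff1 and Muc5ac, read lowest on the control array labelled Pla2g3-/- instead.

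The nearest relatives of the set were measured too. Of 5 further family members on the array (Chil6, Chid1, Ctbs, Ovgp1 and resistin, Retn) none was 2-fold different in any of the 4 comparisons. Chil6, the next gene beyond Chil4, read 29.3 and 29.1 units on the challenged arrays labelled Pla2g3-/- and wild type, against 24.4 and 23.8 units on the control arrays labelled Pla2g3-/- and wild type, and the 4 values lay close together. Retn was at 0.89 on arrays labelled Pla2g3-/- and 0.17 in wild type. Of 6 measured genes for proteins known to bind these products, among them Il13ra2 and Tmem219, which form the receptor of Chil1 protein, none was 2-fold different in any comparison.

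Genes beside the 3 clusters mostly stayed under 2-fold. Of the 5 named genes on each side, 30 in all, 22 were measured. On chromosome 3, around Chil3 and Chil4, none of 10 was 2-fold different in any comparison, with a range of -0.31 to 0.20 between the control arrays. On chromosome 16, Dppa2 (1.81 and 1.11) and, in wild type, Morc1 (1.13) were higher after challenge. Trat1, a T cell gene, was higher by 4.42 on the control array labelled Pla2g3-/- and by 1.13 on the challenged one, and its challenge effect there was -3.81.

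The genes most like 7 of the members over the 4 arrays were ranked by the root mean square difference of log2 values after centring each gene, among 16811 genes outside the set. For Chil4 no gene was closer than Chil3 (0.46), and the nearest outside the set were Orm2 (0.80), Orm1 (0.84) and Slc7a11 (0.86). For Chil3 the nearest outside the set were Slc7a11 (0.44), Orm1 (0.47) and Olfr1301 (0.52). Among genes outside the set, Chil1 was nearest to Alox12e (0.10), Adra2a (0.18) and Myl1 (0.21), and Retnla to Sbpl (0.23), Alox12e (0.26) and Wfdc18 (0.32). Chil5 was nearest to Tmprss11d (0.12), Ccl3 (0.32) and Btbd17 (0.33), and Retnlg to Ccl4 (0.11), Wfdc21 (0.21) and Mmp8 (0.22). Retnla and Chil1 (0.31), and Retnlg and Chil5 (0.29), were also close to each other. Chit1, which varied little over the arrays, was nearest to Rab20 (0.01), Cxadr (0.02) and Zfp819 (0.03). The scanner error of this dim gene, 0.23 to 0.29 per array, exceeds these distances, so their order is not resolved. For Chil1, Chil5 and Retnlg that error was 0.14 to 0.15 per array, above the smallest distance of each (0.10, 0.12 and 0.11). Ranks that lie close together are therefore not resolved for the other members either. These are descriptions over 4 arrays that share a slide.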

How the data were processed

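The authors deposited 1 scanner file per array, which gives the intensity of every spot. Agilent Feature Extraction 11.5.1.1 made it, per the submitters' processing notes, and RNA had been pooled from 4 samples per group and labelled from 200 ng, per the labels' protocols. The series matrix deposited by the authors also holds intensity values. Column by column these are the processed signal over about that array's 75th percentile (44397 of 44397 features, log2 ratios within 1.59e-06), so its scale and direction are known and its genes are not centred. Its column medians were 0.0850, 0.0860, 0.0879 and 0.0875 for challenged labelled Pla2g3-/-, challenged wild type, control labelled Pla2g3-/- and control wild type. Groups came from the labels alone. Nothing says that the pooled samples were single mice.

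From the processed intensity of 43020 spots that are not controls, log2 values were taken relative to the array's 75th percentile (1979, 1808, 1834 and 1986 units, in that order of arrays). Outlier spots (128 to 155 per array) were left out and spots of 1 probe averaged. Of 39429 probes, 28324 took a symbol through their accession from a RefSeq gene table (GRCm38.p6), 8643 kept the file's name and 2462 had none, and 19 with a missing value were left out. A gene is its brightest probe (6737 of 28663 genes have 2 or more). The number of arrays limits the precision, and local background had a median of 25 to 25.5 units. Python 3.11.15, pandas 2.3.3, R 4.3.3 and limma 3.58.1 were used. The limma fit (lmFit, eBayes with trend, Benjamini-Hochberg at 0.05) ran on the 24555 named genes well above background on 1 array or more. A run on simulated data used noise drawn from the fit's own variances and no difference between the challenge effects. It therefore does not check the fit where such differences exist. With 1 array per group, a p-value sets an average effect against an error that comes partly from how the 2 effects fail to add up. The rest of that error is borrowed from the variances of the genes tested (prior degrees of freedom 2.99, residual 1). No replicate of a group enters it.

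The genes, the 17 gene lists and the tests were chosen with earlier results of these data known. All members were named. From a list at most the 4 measured genes with the largest average challenge effect were named, or the largest genotype effect, plus 3 like genes per member and 5 neighbours a side. The genes most like Chia1 are not reported here. Ovgp1, Cd163, Epx, Prg3, Ms4a2, Arg1, Mrc1, Mpo, Itgam, Ltf and Cxcl5 were named outside that rule, after their values were seen. The alternatives were normexp (offset 50), quantile and median scaling, the mean of a gene's probes, genes above background on all 4 arrays, the series matrix, the other control array and limma without a trend.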

Additional observations from a re-analysis of the deposited data

Results flagged for a closer look

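Chil1 drew a closer look because its genotype effect, labelled Pla2g3-/- minus wild type, had opposite signs, 0.23 between the challenged arrays and -0.09 between the control arrays. With 1 array per group the difference between these values was not tested, and both are close to the scanner error of 0.20.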

How the results depend on the processing

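No paired analysis was possible because each group has 1 array, and no array could be left out. Of the recomputed counts among the 9 genes, 73 stayed within 1.5 times of the reported ones and 5 did not. With the mean of all probes, 1 gene (Retnlg) in place of 2 was at least 2-fold higher between the challenged arrays. The limma fit called 1 of the 9 genes, Retnla, for challenge under normexp (adjusted p = 0.0213), quantile scaling (0.0177), median scaling (0.0425) and with genes above background on all 4 arrays (0.0227), against 0 in the reported fit. Without a trend limma called 0 genes in all, with 2424 at an unadjusted p under 0.05. Of the other recomputed values, 368 kept their side and size, 22 moved, 4 were newly called and 3 changed sign. Those 3 were the wild-type challenge effects of Chil3 (-0.32) and Chil4 (-0.42) with the other control array, and the average genotype effect of Retnlb under normexp (0.13, reported -0.06, adjusted p = 0.817). Counts over all genes were smaller under normexp, with 380 higher and 319 lower after challenge on arrays labelled Pla2g3-/- (reported 926 and 814), 128 and 57 in wild type (reported 436 and 406), 291 and 147 between the challenged arrays (reported 923 and 595) and 359 and 97 between the control arrays (reported 767 and 431). With genes above background on all 4 arrays they were 247 and 218 for challenge in wild type and 611 and 379 between the challenged arrays, with 252 lower between the control arrays, since fewer genes were counted, and with the other control array 548 and 976 in wild type. Limma called 4 genes for challenge under normexp, 5 with genes above background on all 4 arrays and 2 under quantile and median scaling (reported 1), and for genotype 18 under normexp and 8 with genes above background on all 4 arrays (reported 0). The cause of the other changes was not tested. Low signal limits Retnlb, Chit1 and the dimmer Chil5 probe.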

Other observations

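Marker lists of other cells that the pools could hold gave the following values. Dendritic cell genes had median levels of -3.40 and -4.22 on the challenged arrays labelled Pla2g3-/- and wild type, against -4.32 and -4.05 on the control arrays labelled Pla2g3-/- and wild type, and 8 of 9 were above background. B cell genes had summed scaled signals of 3.55 and 2.57 on the challenged arrays labelled Pla2g3-/- and wild type. On the control arrays labelled Pla2g3-/- and wild type these were 3.18 and 6.97. The B cell sum was thus highest on the wild-type control array, as was that of parathyroid and thyroid genes (3.10). The part of either list in the Chil3 and Chil4 result was not tested. Stromal and endothelial genes had median levels of -0.01, -0.40, -0.83 and -0.12, adipocyte genes -4.93, -5.08, -4.32 and -4.33, and parathyroid and thyroid genes -4.60, -5.30, -4.35 and -3.68, for challenged labelled Pla2g3-/-, challenged wild type, control labelled Pla2g3-/- and control wild type. Eosinophil and mast cell genes had medians of -4.76, -4.62, -4.52 and -4.27 in the same order, and the eosinophil granule genes Epx and Prg3 and the mast cell receptor gene Ms4a2 were not above background on any array.

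Arg1, arginase 1, which is often read with Chil3 and Retnla as a mark of alternatively activated macrophages, differed from both. It had a challenge effect of 1.50 on arrays labelled Pla2g3-/- and -0.28 in wild type, and was at 0.37 between the control arrays, where Chil3 was at 2.80. Mrc1, a mannose receptor of the same macrophages, was at 1.01 and -0.60 for challenge and at -0.36 between the control arrays. Both genes were picked for this comparison after their values were seen.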
